A study of Homo sapiens with 47 samples.

Results

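The genes described here are 9 transcripts that low oxygen is known to raise, namely ADM, VEGFA, CA9, NDRG1, BNIP3, EGLN3, ANKRD37, KDM3A and P4HA1, out of 58051 genes listed for each library. ADM was chosen by its own level in these data, which was high in mesenchymal cells at passage 5 (P5), and the other 8 were added as a list of genes induced by hypoxia. The question was whether they move together by time point and by cell fraction. The P5 difference of ADM between fractions is therefore a description with no test, and the same holds for every member in that contrast.

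All 47 libraries came from WA09 (H9), an established human embryonic stem cell (hESC) line grown on Matrigel in mTESR1. The t0 libraries are hESCs a day after seeding. All later groups were grown in N2B27 medium without vitamin A. It contained the WNT agonist CHIR-99021, rhFGF2, the retinoic acid receptor inverse agonist AGN193109 and the ROCK inhibitor Y-27632. The paper states that more of the ROCK inhibitor was needed in the earliest passages than at other time points. Comparisons of P1 with 36h and with P5 may therefore also hold a change of this dose. The part of the dose in the values was not tested. The 35 whole-culture libraries cover t0, 36h and passages P1 to P10, each with 3 separate differentiations (r1 to r3) except P9, which has r1 and r2. The other 12 are epithelial (EPI) and mesenchymal (MES) fractions of P5 and P8, 3 of each, separated by selective detachment with TrypLE rather than by a sorted marker. Only 1 cell line was used, so the spread between differentiations holds no spread between donors, and no oxygen level is given in the labels for any group.

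Cells read oxygen through hypoxia-inducible factors (HIFs). With oxygen present, prolyl hydroxylases of the EGLN family mark the HIF alpha subunit for destruction through VHL. When oxygen falls the subunit persists, pairs with ARNT and binds short DNA elements with the core ACGTG or GCGTG beside its target genes. The targets fall into several roles. ADM (adrenomedullin) and VEGFA are secreted peptides that act on endothelial cells. EGLN3, itself a prolyl hydroxylase, feeds back on HIF, and KDM3A is an oxygen-dependent histone demethylase. CA9 is a membrane carbonic anhydrase that exports acid, BNIP3 targets mitochondria for removal, and P4HA1 is a catalytic subunit of collagen prolyl hydroxylase. NDRG1 is a stress and differentiation gene, and ANKRD37 is a small ankyrin-repeat protein. Most of these genes also answer to other signals, so their RNA is not a reading of oxygen.

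The core elements are shown first because they are what these genes are known to share at the DNA level. In the 250 bases before the RefSeq start (GRCh38.p14), ACGTG or GCGTG on either strand was found in 6 of the 7 members for which a sequence was matched. The same holds for 43.2% of 35116 promoters scanned in the same way, so the share in the members is a description. ACGTG alone was found in 4 of the 7 (BNIP3, ANKRD37, CA9 and P4HA1), against 18.5% of all promoters. VEGFA and NDRG1 had no entry in the sequence table. In the lines that follow, each written 5′ to 3′ on the gene's own strand, capitals mark the core or its reverse complement, and CACGTG holds ACGTG on both strands. ADM is included as the gene on which the choice of members rests.
ANKRD37, chr4:185396676-185396705, plus strand: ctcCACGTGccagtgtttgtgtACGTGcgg
BNIP3, chr10:131982020-131982069, minus strand: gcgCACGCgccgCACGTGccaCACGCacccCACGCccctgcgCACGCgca
P4HA1, chr10:73096938-73096962, minus strand: tgatcgagctCACGTagcgagggct
CA9, chr9:35673900-35673924, plus strand: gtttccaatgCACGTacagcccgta
ADM, chr11:10304962-10304986, plus strand: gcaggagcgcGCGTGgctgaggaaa
BNIP3 holds 6 core matches in this stretch and ANKRD37 holds 3. In GENCODE 29 the ANKRD37, P4HA1, CA9 and ADM stretches overlap an annotated exon of the gene, and the BNIP3 stretch overlaps none. EGLN3 held no match in its window, which says only that these letters are not there.

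Library totals ran from 13029491 to 64082859 expected counts (median 47292229), and no pair of replicates was alike within sampling noise. The r2 library of t0 stood apart from r1 and r3 in these genes. Pluripotency markers (POU5F1, NANOG, DPPA4 and L1TD1) summed to 3114, 2744 and 2861 TPM in r1, r2 and r3 at t0, so this library matched its label. TPM (transcript share scaled to a common library total) is the deposited length-corrected level and is the scale of all levels given here. Differentiations also differed in cell markers at most time points, and 36h, P1, P2, P3, P7, P8 and P10 each held a library well apart from the others of its group in at least 1 marker list. The r1 libraries of P1, P2 and P10 are described here because values that follow turn on them. Pluripotency markers summed to 1483 TPM in P1 r1 against 127 and 111 in r2 and r3, and epithelial neural progenitor markers to 1092 against 148 and 53.2. The latter list also summed to 584 to 679 TPM in the t0 hESCs, so at early stages it does not mark neural progenitors alone. NMP markers were at 1061 TPM in P1 r1 against 426.1 and 166.5, and the paper grouped this library with those of 36h. NMP markers summed to 820 TPM in P2 r1 against 149 and 78.6. In P10 r1 epithelial neural progenitor markers were at 458 TPM against 16.3 and 26.5, and mesenchymal neural crest markers at 252 against 1010 and 1087. Calls of members that depend on t0 r2, P1 r1 or P10 r1 are given with and without that library.

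At t0, BNIP3 was at 52.8 TPM in r1, 215 in r2 and 46.8 in r3. ANKRD37 was at 1.72, 7.32 and 1.19 TPM in the same order. The r2 library was far above the others for both genes, while r1 and r3 lay close together. P4HA1 was at 26.7, 79.7 and 29.9 TPM, KDM3A at 26.2, 65.7 and 27.4, and ADM at 42.2, 96.1 and 41.5. NDRG1 was at 2.48, 5.21 and 2.18 TPM, VEGFA at 19.8, 35.1 and 22.4, and EGLN3 at 18.8, 26.1 and 18.8. In each of these 8 genes r2 was the highest of the t0 libraries. CA9, at 1.10, 0.83 and 0.95 TPM, was the exception. For 5 members (ADM, BNIP3, EGLN3, ANKRD37 and KDM3A) this library was the highest of all 47.

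On log2 normalized counts, r2 exceeded the mean of r1 and r3 by 2.34 for ANKRD37, 2.18 for BNIP3, 1.57 for P4HA1, 1.41 for KDM3A, 1.30 for NDRG1 and 1.24 for ADM. These 6 of 9 members were at least 2-fold higher in r2, compared with 3.09% of 21995 genes. The median over the 9 members was 1.30, against -0.005 over all genes, and the highest such median in any of the 45 libraries with 2 others in their group. The next was 0.73, in P1 r3. A single library has no replicate, so this is a description of that library.

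Other genes of the pathway stood out in the same library. Of 26 further hypoxia-induced genes, 25 were above the other t0 libraries and 13 were at least 2-fold higher, with a median log2 difference of 1.06. Examples, chosen like the other genes named for this library after their values were seen, are BHLHE40 (a transcriptional repressor; 1.88, 17.0 and 1.73 TPM in r1, r2 and r3) and DDIT4 (an inhibitor of mTORC1; 60.3, 218 and 54.7 TPM). All 20 genes of glucose uptake and glycolysis were above the other t0 libraries, 7 of them at least 2-fold, with a median of 0.73. The lactate exporter SLC16A3 went from 4.61 and 5.69 TPM in r1 and r3 to 53.3 in r2, and the glucose transporter SLC2A1 from 184 and 205 to 644. The glycolysis list had similar medians in P1 r1 (0.72, 17 of 20 above) and P9 r2 (0.71, 18 of 20 above). The medians over the members in those libraries were -0.42 and 0.08. In t0 r2 the HIF genes themselves showed no such shift as a list, with a median of -0.06 over 12 genes. HIF1A was at 261, 236 and 228 TPM. In this list 5 of 12 genes were above the other t0 libraries and 1 was at least 2-fold higher. That gene was EGLN1, the main oxygen-sensing hydroxylase and itself a HIF target, at 18.2, 47.7 and 18.8 TPM. CITED2 was raised less, at 41.8, 61.6 and 41.6 TPM (log2 difference 0.57). Unfolded protein and integrated stress response genes did not share the rise, with 2 of 12 above the other libraries and a median of -0.17. The 36h library of r2, taken next in the same series, had a median of -0.22 over the 26 hypoxia-induced genes, 0.12 over the glycolysis genes (14 of 20 above the other 36h libraries) and 0.30 over the members (7 of 9 above, none by 2-fold).

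**Figure D1:**
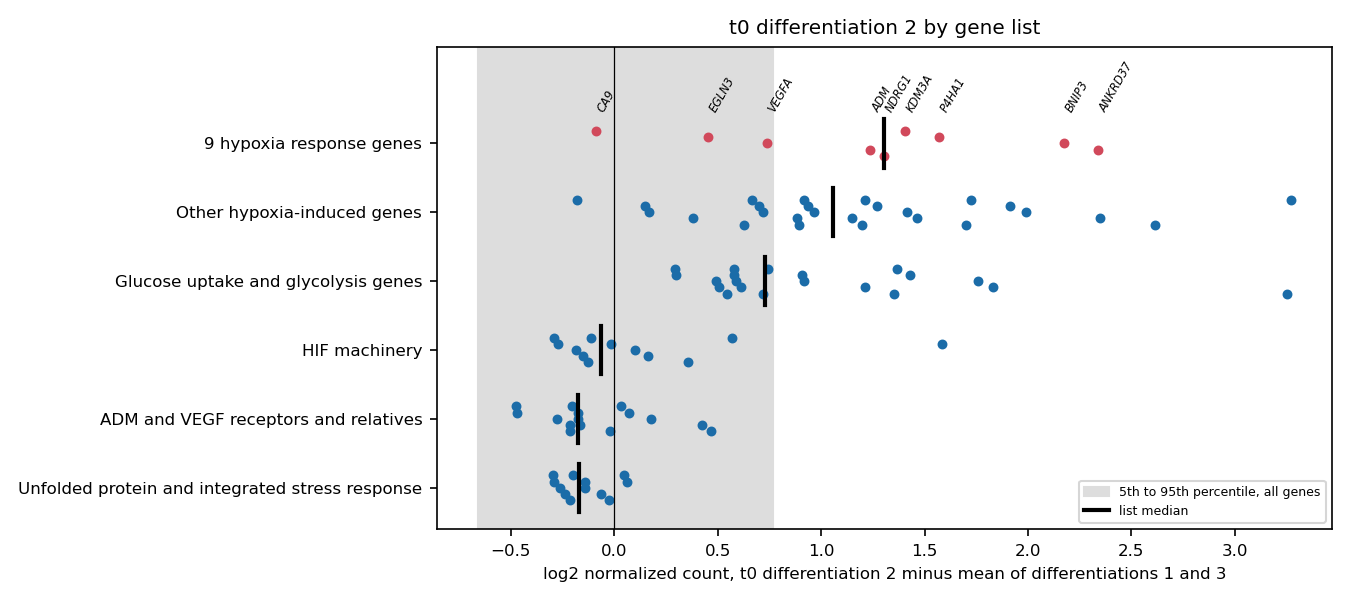
Each point is a gene, placed by its log2 normalized count in t0 r2 minus the mean of t0 r1 and r3; the grey band holds the 5th to 95th percentile of all genes and the black bars are list medians. The 9 members (median 1.30), other hypoxia-induced genes (1.06) and glycolysis genes (0.73) lie to the right of 0, while the HIF, receptor and stress lists are centred near it.

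Between t0 and 36h, when hESCs become neuromesodermal progenitor (NMP)-like cells, EGLN3 fell, and it was the only member to pass the test with all libraries in this or any later comparison. The test was edgeR's quasi-likelihood F-test blocked on differentiation, and passing took an FDR under 1%, a change of 2-fold or more and 100 or more normalized counts on average. At this setting 2.71% of 21750 genes passed. EGLN3 went from 18.8, 26.1 and 18.8 TPM at t0 to 6.49, 5.55 and 3.25 at 36h, with no overlap between groups. Summed pluripotency markers were at 2405, 1705 and 861 TPM at 36h in r1, r2 and r3, all below the t0 libraries and in the same order as EGLN3 and ADM, while paraxial mesoderm markers were at 8.81, 132 and 631. The part of these markers in the values was not tested. The log2 fold change of EGLN3 came to -2.11 (SE 0.41, edgeR adjusted p = 0.00144). Without the t0 r2 library it was -1.77 (SE 0.45) and no longer passed (edgeR adjusted p = 0.0178). Nor did it pass with all libraries of r2 or of r3 left out (edgeR adjusted p = 0.0458 and 0.0730), or with the t0 and 36h libraries alone in the fit (edgeR adjusted p = 0.0164).

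ADM had the largest fold change of the members, with 42.2, 96.1 and 41.5 TPM at t0 and 3.72, 1.83 and 0.75 at 36h, again with no overlap. Its log2 fold change of -5.06 (SE 1.30) did not pass at 1% (edgeR adjusted p = 0.0113). DESeq2 passed it (adjusted p = 9.84e-05). ANKRD37 differed by -2.73 (SE 0.63, edgeR adjusted p = 0.00563) but its mean lay below 100 normalized counts. CA9 was low throughout this step, at 1.10, 0.83 and 0.95 TPM at t0 and 0.56, 0.32 and 0.49 at 36h, with edgeR adjusted p = 0.151. In the other 5 members the groups overlapped. Over all genes tested 39% did not overlap, so the 4 of 9 members that did not are near the background.

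The t0 r2 library decided the direction of those 5. All 9 members had a negative log2 fold change at 36h, with a median of -0.85 against 0.00 over all genes tested. Without t0 r2, 4 of 9 were below 0 and the median was 0.17. BNIP3 moved from -0.85 to 0.20, P4HA1 from -0.33 to 0.23, KDM3A from -0.38 to 0.20, VEGFA from -0.28 to 0.17 and NDRG1 from -0.13 to 0.23. ADM (-4.19, edgeR adjusted p = 0.0557), ANKRD37 (-1.60), CA9 (-1.55) and EGLN3 stayed below 0, so that these 4 pointed downward with or without that library and the other 5 did not.

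Of 26 other hypoxia-induced genes none was higher and 4 were lower. BHLHE41, a circadian repressor, changed by -4.57 (SE 0.99), FAM162A by -1.35 (SE 0.32) and the histone demethylase KDM4C by -1.23 (SE 0.19). Without t0 r2 these values were -3.60, -0.72 and -1.05. Without t0 r2 only 1 of the 26, KDM4C, still passed. Among 20 glucose uptake and glycolysis genes, PDK1 was higher (1.06, SE 0.26) and HK2 lower (-1.47, SE 0.30). PDK1, a kinase that inhibits pyruvate dehydrogenase, went from 44.8, 83.4 and 45.4 TPM to 114, 126 and 103. It passed without t0 r2 as well, whereas HK2 did not (-0.94). None of the 12 HIF genes passed.

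**Figure D2:**
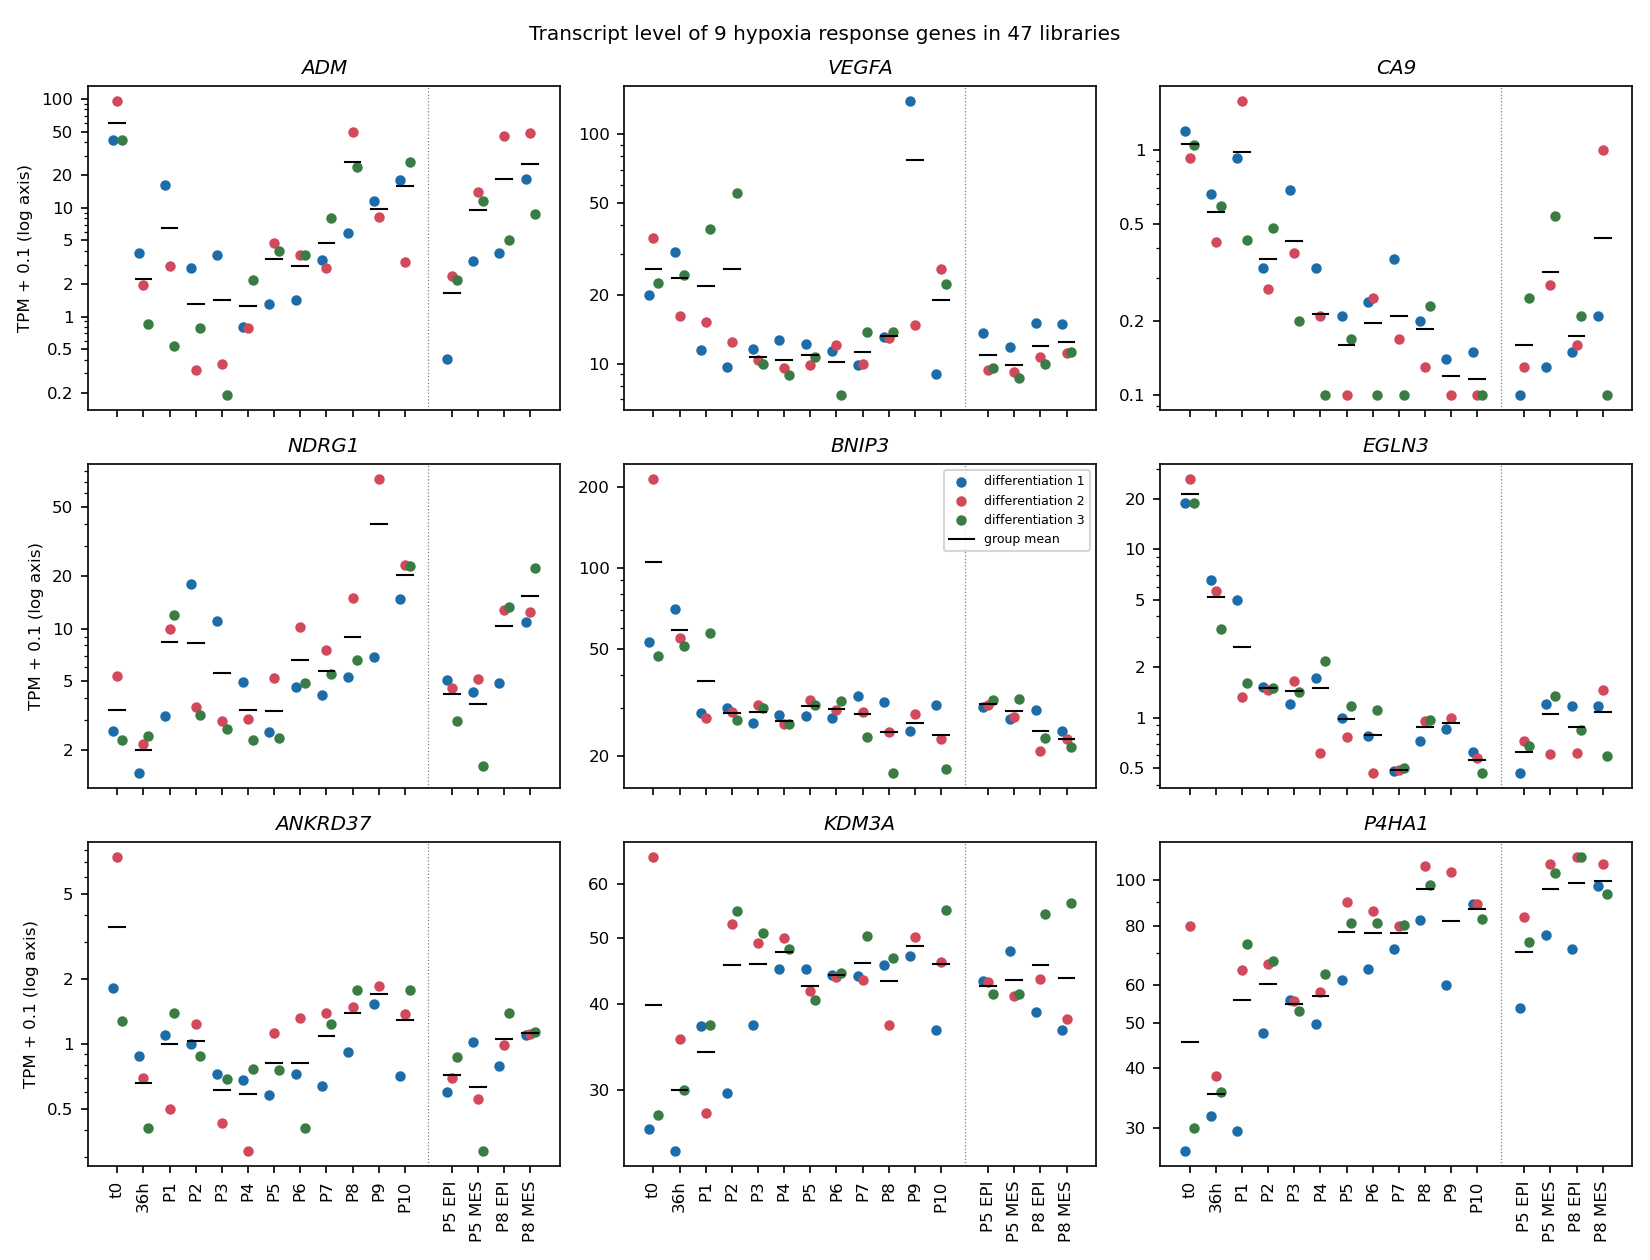
TPM plus 0.1 on a log axis for each of the 9 members, with 1 point for each library, coloured by differentiation, and a bar for the group mean; fractions stand right of the dotted line. ADM and EGLN3 are high at t0 in all 3 differentiations, BNIP3 and ANKRD37 mainly in r2, while P4HA1 is higher in later passages and VEGFA and NDRG1 peak in single libraries.

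From 36h to P1 no member passed, while 1.19% of genes did. An unadjusted edgeR p under 0.05 was found for 2 of 9 members, near the background of 5083 of 21750 genes. NDRG1 was at 1.38, 2.06 and 2.30 TPM at 36h and 3.03, 9.80 and 11.9 at P1, higher in each differentiation (log2 fold change 1.63, SE 0.80, edgeR adjusted p = 0.224). It passed with all r1 libraries left out (1.85, edgeR adjusted p = 0.0042), but not with P1 r1 alone left out (2.05, SE 0.85, edgeR adjusted p = 0.11). EGLN3 was lower at P1 than at 36h in each differentiation, at 4.89, 1.23 and 1.50 TPM (-1.14, SE 0.41, edgeR adjusted p = 0.0854). P1 r1, the library with high pluripotency markers, had the lowest NDRG1 and the highest EGLN3 of the P1 libraries. Without it EGLN3 passed (-1.74, SE 0.44, edgeR adjusted p = 0.00826), as did 809 genes in place of 259. The part of the marker difference in these values was not tested. PDK1 fell as well, with a log2 change of -2.55 (SE 0.27) and edgeR adjusted p = 1.41e-05, to 21.5, 13.2 and 23.9 TPM.

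From P1 to P5, when the culture parts into epithelial and mesenchymal cells, 4% of genes passed and again no member did. The unadjusted edgeR p was under 0.05 for 3 of 9 members and for 6791 of 21750 genes, so this count is near the background. EGLN3 (-1.78, SE 0.42, edgeR adjusted p = 0.00551) and CA9 (-3.53, SE 0.88, edgeR adjusted p = 0.00738) met the FDR and the fold, but both had means below 100 normalized counts. Without P1 r1 the EGLN3 value was -1.18 (edgeR adjusted p = 0.0522) and that of CA9 -3.84 (edgeR adjusted p = 0.00558). By P5, EGLN3 was at 0.90, 0.67 and 1.07 TPM and CA9 at 0.11, 0.00 and 0.07. CA9 had fewer than 3 counts in 26 of the 47 libraries, and at most 6 counts in any library from P4 on, so its later differences were not detectable at this depth. VEGFA went from 11.4, 15.1 and 38.5 TPM at P1 to 12.1, 9.77 and 10.6 at P5. The log2 fold change of ADM was -0.67 (SE 1.17, edgeR adjusted p = 0.743). SLC16A3 fell, with a log2 change of -3.80 (SE 0.81), and so did HIF3A, a HIF alpha subunit often described as an antagonist (-2.42, SE 0.47).

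From P5 to P8 only 0.0092% of genes passed (2 of 21750). No member passed in edgeR or DESeq2. Before adjustment the edgeR p was under 0.05 for 1 of 9 members, near the background of 2892 of 21750 genes. ADM was higher at P8 in each differentiation, going from 1.20, 4.64 and 3.93 TPM to 5.78, 49.9 and 23.6, with no overlap, though the spread at P8 was wide (log2 fold change 2.98, SE 1.18, edgeR adjusted p = 0.257). NDRG1 was at 2.46, 5.11 and 2.24 TPM at P5 and 5.16, 15.0 and 6.50 at P8 (1.59, SE 0.80, edgeR adjusted p = 0.396). Neither passed. P4HA1 was at 61.4, 89.8 and 80.9 TPM at P5 and at 82.3, 107 and 97.7 at P8, higher in each differentiation by a small amount (0.34, SE 0.24). VEGFA was at 12.1, 9.77 and 10.6 TPM at P5 and at 12.9, 12.9 and 13.6 at P8. The P5 and P8 groups did not overlap in 3 of 9 members (ADM, NDRG1 and VEGFA) and in 19.3% of all genes, which is given as a description. Mesenchymal neural crest markers were at 191, 269 and 527 TPM at P5 and 153, 495 and 888 at P8, and epithelial neural progenitor markers at 640, 522 and 332 and then 782, 284 and 201. P8 r1, with the most epithelial and fewest mesenchymal markers, had the lowest ADM, NDRG1 and P4HA1 of the P8 libraries. The part of the markers in these values was not tested.

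P9 and P10 were compared with P8 together, and 1.25% of genes passed in edgeR. No member did, while DESeq2 passed VEGFA. Before adjustment the edgeR p was under 0.05 for 2 of 9 members, near the background of 5708 of 21750 genes. VEGFA had the smallest adjusted p (log2 fold change 1.82, SE 0.56, edgeR adjusted p = 0.0386). It was at 12.9, 12.9 and 13.6 TPM at P8, at 140 and 14.7 in r1 and r2 of P9, and at 8.87, 25.7 and 22.2 at P10. The P9 r1 library set this value, since without it the change was 0.50 (SE 0.45, edgeR adjusted p = 0.537). NDRG1 showed the same pattern in the other P9 library, at 6.80 TPM in r1 and 72.5 in r2. At P10 it was at 14.8, 23.0 and 22.8 TPM, against 5.16, 15.0 and 6.50 at P8. The log2 change of NDRG1 was 1.59 (SE 0.74, edgeR adjusted p = 0.173), and 0.36 without P9 r2. ADM was at 11.4 and 8.03 TPM at P9 and at 18.1, 3.10 and 26.3 at P10, with 1 of these 5 below the lowest P8 library. The cultures also differed in markers. Epithelial neural progenitor markers, at 201 to 782 TPM at P8, were at 16.3 to 38.1 in both P9 libraries and in P10 r2 and r3, and mesenchymal neural crest markers, at 153 to 888 at P8, were at 1010 to 1203. P10 r1, at 458 and 252 TPM, had the lowest VEGFA and NDRG1 of the P10 libraries. Without it no member passed, 1007 genes did in place of 271, VEGFA was at 1.99 (SE 0.54, edgeR adjusted p = 0.0115) and NDRG1 at 1.75. The part of the markers in these values was not tested. Of the 26 other hypoxia-induced genes, CA12, a carbonic anhydrase of the same family as CA9, rose (3.06, SE 0.60). It was at 0.52, 0.44 and 0.41 TPM at P8, at 7.79 and 1.17 at P9 and at 0.68, 2.92 and 4.86 at P10. Without P9 r1 it did not pass (2.40, edgeR adjusted p = 0.0177), and without P10 r1 it did (3.29).

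In the libraries where VEGFA peaked, stress response genes were high as well. Its highest levels in the 47 libraries were 140 TPM in P9 r1 and 55.4 in P2 r3, where the other libraries of the group were at 14.7 (P9) and at 9.55 and 12.3 (P2). These are also the libraries in which 12 unfolded protein and integrated stress response genes had the highest summed level, 3169 and 2170 TPM. Measured against the rest of the group, 8 of the 12 were at least 2-fold higher in P9 r1 and 7 in P2 r3, with median log2 differences of 1.88 and 1.82. Over all genes 11.1% were at least 2-fold higher in P9 r1 and 8.44% in P2 r3. ASNS (asparagine synthetase, an ATF4 target) was at 947 TPM in P9 r1 and 549 in P2 r3. CHAC1, a glutathione-degrading enzyme also under ATF4, was at 156 and 96.4 TPM. HSPA5, the endoplasmic reticulum chaperone, was not raised in either, with a log2 difference of -1.08 in P9 r1. These genes were singled out after their values were seen. Of the other members, ADM and CA9 were higher in P9 r1 than in r2 in TPM, CA9 on a single count, and the rest were lower. BNIP3 was at 24.5 TPM against 28.4 in r2, KDM3A at 47.0 against 50.1, P4HA1 at 59.8 against 104, NDRG1 at 6.80 against 72.5, ANKRD37 at 1.44 against 1.77, EGLN3 at 0.76 against 0.90 and ADM at 11.4 against 8.03. Of the 26 other hypoxia-induced genes 7 were at least 2-fold higher in P9 r1 and 4 at least 2-fold lower, compared with 11.1% and 12.5% of all genes. In P2 r3, 7 of the 26 were at least 2-fold higher and 0 lower (median 0.22), against 8.44% of all genes higher. In P1 r3, with VEGFA at 38.5 TPM, 11 were higher and 2 lower (median 0.76), against 12.3% of all genes higher. The median log2 difference over the members was -0.17 in P2 r3 and 0.73 in P1 r3. In t0 r2, where VEGFA was at 35.1 TPM, the stress genes summed to less than in t0 r1. The part of the stress genes in the VEGFA peaks was not tested.

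**Figure D3:**
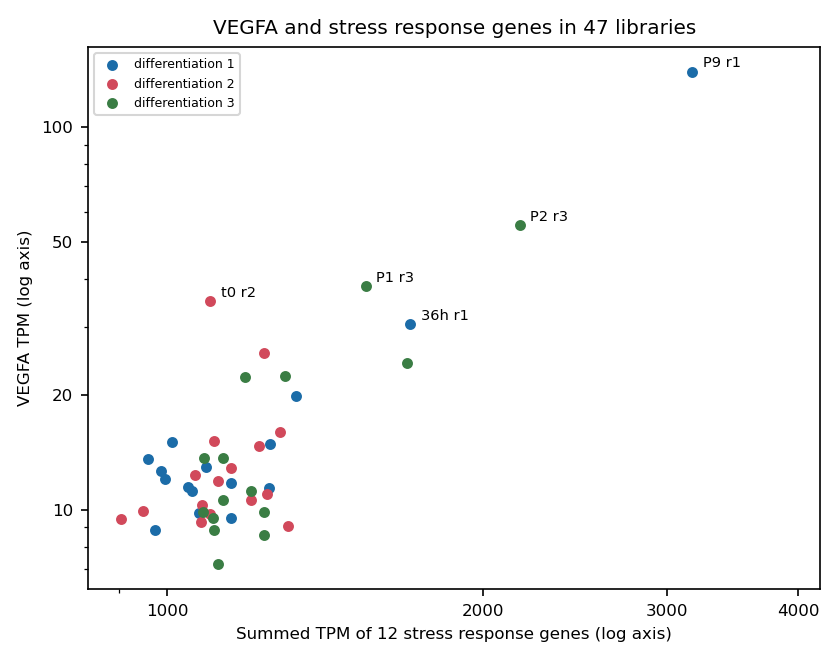
VEGFA level against the summed level of 12 unfolded protein and integrated stress response genes, both in TPM on log axes, with 1 point for each of the 47 libraries and libraries above 30 TPM of VEGFA named. P9 r1 (140 TPM of VEGFA) and P2 r3 (55.4) are the highest on both axes, while t0 r2 (35.1) lies among libraries of low stress gene level.

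NDRG1 peaked in other libraries. In P9 r2 (72.5 TPM) and P2 r1 (17.9 TPM, against 3.44 and 3.08 in r2 and r3) the glycolysis list had median log2 differences of 0.71 and 0.60 from the rest of the group, and the stress list was at -1.88 and -0.54. These differences are set against groups that hold P9 r1 and P2 r3, where the stress genes were highest. In level the stress genes summed to 1222 TPM in P9 r2 and 1151 in P2 r1, rank 16 and 21 of the 47 libraries. P2 r1 is also the library with high NMP markers. P1 r1 went the other way, with a glycolysis median of 0.72 (17 of 20 above the rest of the group). NDRG1 was lowest there, at 3.03 TPM against 9.80 and 11.9 in r2 and r3. NDRG1 was also at 23.0 and 22.8 TPM in P10 r2 and r3 and at 22.3 in P8 MES r3. Against the rest of its group it was higher there by 0.33, 0.83 and 0.54 on the log2 scale. The glycolysis medians there were 0.02, 0.003 and -0.11. Differences from a group cannot show a level that the whole group shares, so they do not tell whether glycolysis genes were raised there. Across the 12 time points the highest mean of ADM was 52.0 times its lowest (t0 against P4), that of EGLN3 54.5 times (t0 against P7) and that of NDRG1 20.7 times (P9 against 36h). Without P9 r2 the NDRG1 ratio was 10.5 (P10 against 36h), without P9 r1 it was 37.9, and without t0 r2 the ADM ratio was 36.3. P4HA1 spanned 2.71-fold and KDM3A 1.63-fold. When time points were ordered by their mean, all 11 pairs of neighbours overlapped in their libraries for 7 members. For P4HA1 10 of 11 did, and for EGLN3 9 of 11. All 11 overlapped in 63.2% of 21959 genes, so the count is nothing particular to the members.

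The fraction comparison at P5 is the one on which ADM was chosen. ADM was at 0.31, 2.27 and 2.05 TPM in the P5 EPI fractions and at 3.14, 13.8 and 11.3 in the MES fractions. It was higher in MES in each differentiation, by 2.90, 2.44 and 2.23 on the log2 scale (mean 2.52, SD 0.34, n = 3, or 5.73-fold). The whole cultures at P5 lay between the fractions in each differentiation. In bulk RNA, fewer cells of a type and less RNA per cell cannot be told apart. P4HA1 was the other member with a steady difference, at 53.7, 83.5 and 73.9 TPM in EPI and 76.2, 108 and 103 in MES (0.45, 0.43 and 0.53, mean 0.47, SD 0.05). P4HA1 hydroxylates prolines of collagen, which lets its triple helix hold. EGLN3 was above 0 in each differentiation but uneven (1.42, 0.17 and 0.67), at levels of 0.37 to 1.25 TPM.

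The remaining members showed no difference of 1 sign in all 3 differentiations, ANKRD37 and CA9 apart. KDM3A differed by 0.02, -0.001 and -0.01 on the log2 scale, BNIP3 by -0.14, -0.02 and 0.14, NDRG1 by -0.23, 0.18 and -0.11 and VEGFA by -0.12, 0.23 and 0.19. ANKRD37, at 0.22 to 0.92 TPM in these libraries, differed by -0.06, -0.70 and -1.79 on normalized counts, although in TPM r1 was higher in MES (0.92 against 0.50), so the sign in r1 depends on the scale. CA9 was at 0, 0.03 and 0.15 TPM in EPI and 0.03, 0.18 and 0.44 in MES. For CA9 no ratio was formed, since its counts were near 0 (0 to 5 in these libraries). The fractions fit their labels at P5. Summed mesenchymal neural crest markers were at 86.8 to 325 TPM in EPI and 538 to 741 in MES, and epithelial neural progenitor markers at 495 to 784 in EPI and 96.0 to 282 in MES.

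At P8, which the choice of members did not use, the fractions were tested. No gene passed in edgeR's test (0% of 18885 genes), while 2261 had an unadjusted p under 0.05 and DESeq2 passed 55. None of the 8 members tested had an unadjusted p under 0.05. ADM was at 3.72, 45.9 and 5.00 TPM in the P8 EPI fractions and at 18.1, 49.0 and 8.69 in the MES fractions, so the ranges overlapped. Within differentiations it was higher in MES by 2.19, 0.11 and 0.75 on the log2 scale (fitted 1.04, SE 0.65, edgeR adjusted p = 0.553). The P8 whole culture lay between its fractions in r1 and r2, but in r3 it was at 889 normalized counts, above both EPI (212) and MES (357). Both r2 fractions lay above every other P8 fraction. NDRG1 differed by 1.07, -0.11 and 0.69 (fitted 0.53, SE 0.31, edgeR adjusted p = 0.518). P4HA1 kept its P5 direction in r1 alone and differed by 0.47, -0.11 and -0.31 (fitted 0.03, SE 0.13). BNIP3 and KDM3A were slightly lower in MES in all 3 differentiations, by means of -0.10 (SD 0.10) and -0.11 (SD 0.04), neither of which passed.

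The separation of the fractions was also less complete at P8. Mesenchymal markers summed to 119, 497 and 874 TPM in the EPI fractions of r1, r2 and r3 and to 346, 555 and 1247 in the MES fractions. As a ratio this gap was smallest in r2 and largest in r1. Epithelial neural progenitor markers gave another order, at 732, 315 and 213 TPM in EPI and 506, 203 and 74.4 in MES, with the smallest ratio in r1 and the largest in r3. The part of this in the ADM values was not tested. No test of passage against fraction was made for ADM, because its P5 value was used to choose it.

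**Figure D4:**
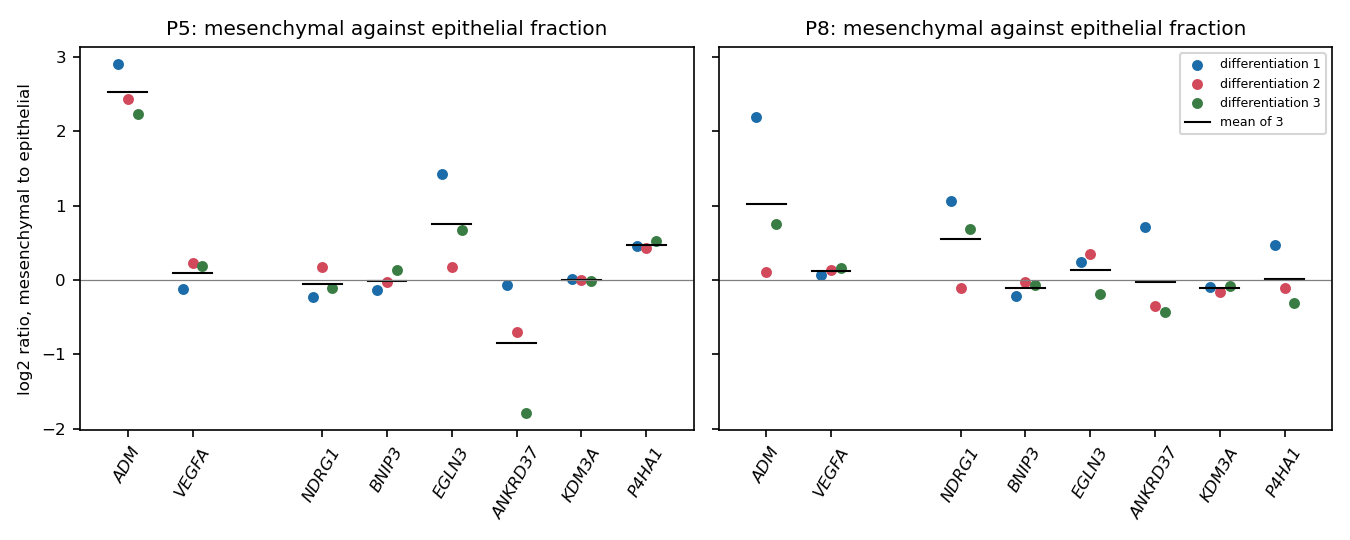
Log2 ratio of the mesenchymal to the epithelial fraction within each differentiation at P5 (left) and P8 (right), with points coloured by differentiation and bars for the mean of 3; CA9 is left out for lack of counts. ADM (mean 2.52), EGLN3 (0.75) and P4HA1 (0.47) lie above 0 in all 3 differentiations at P5, whereas at P8 only VEGFA and ADM do, ADM from 0.11 to 2.19.

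Over time, the 9 genes did not share a single pattern. With all libraries, all 9 members were lower at 36h than at t0 (4 of 9 without t0 r2), 6 were higher at P1 than at 36h (5 without P1 r1), 7 were lower at P5 than at P1 (6 without P1 r1; median log2 fold change -0.67, against -0.01 over all genes) and 8 were higher at P8 than at P5 (0.39 against 0.003). The 8 higher at P8 include CA9, whose counts were near 0, and EGLN3 (0.12, SE 0.42) and KDM3A (0.04, SE 0.25), which hardly moved. After P8, 5 were higher and 4 lower. Over the 12 time-point means, the Spearman correlation of the 36 pairs had a median of 0.02 and ran from -0.79 to 0.87, with 18 pairs above 0 and 10 above 0.5. Without t0 the median was 0.07 and again 10 pairs were above 0.5. These points share libraries and a single cell history, so they are given as a description. Within a differentiation the medians were 0.15 (r1), 0.18 (r2) and -0.01 (r3).

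The pairs are grouped here by these same correlations, so their values are no support for the grouping. One group held BNIP3, CA9 and EGLN3, whose means were highest at t0, for BNIP3 only through r2, since without that library its highest mean was at 36h. They correlated at 0.75 (CA9 with BNIP3), 0.80 (CA9 with EGLN3) and 0.66 (BNIP3 with EGLN3), and at 0.67, 0.75 and 0.55 without t0. CA9 had fewer than 3 counts in 26 libraries, so the ranks behind its correlations rest in large part on values that were not detectable. Another held NDRG1, P4HA1, ADM and ANKRD37. Without t0 all 6 of their pairs lay between 0.73 and 0.91, the highest for NDRG1 with ANKRD37. With t0, when ADM and ANKRD37 are at their highest means (ANKRD37 at P9 without t0 r2), these pairs ran from 0.38 to 0.87. VEGFA and KDM3A fell in neither group, and VEGFA correlated with a member of each (0.59 with EGLN3 and 0.52 with ANKRD37). KDM3A correlated at 0.56 with NDRG1 and 0.45 with P4HA1, but at 0.10 with ANKRD37 and -0.10 with ADM. With BNIP3, CA9 and EGLN3 it stood at -0.72, -0.68 and -0.48. NDRG1 and P4HA1 correlated negatively with BNIP3 (-0.74 and -0.79, and -0.67 and -0.74 without t0).

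Between libraries of the same group the members also varied mostly apart. Deviations from the group mean over 47 libraries gave a median Pearson r of 0.10 (range -0.42 to 0.53), with 2 of 36 pairs above 0.5, P4HA1 with BNIP3 (0.53) and with ANKRD37 (0.51). Without the t0 libraries the median was 0.004 and no pair was above 0.5. BNIP3 with P4HA1 then stood at 0.10, whereas NDRG1 kept 0.45 with ANKRD37 and 0.44 with P4HA1. ANKRD37 had the highest r with the mean of the other 8, at 0.76 over all libraries (rank 4 of 21987 genes) and 0.65 within groups (rank 6). The t0 r2 library carried much of this, since without it the values were 0.56 (rank 857) and 0.43 (rank 316). For P4HA1 the within-group r was 0.54 (rank 22), and 0.18 without t0 r2, and for BNIP3 it was 0.47 (rank 105), and -0.24 without t0 r2. KDM3A was at 0.305 (rank 758), and at -0.29 without t0 r2, and NDRG1 at 0.18, and at 0.06 without it. ADM (0.08), VEGFA (-0.01), CA9 (-0.09) and EGLN3 (-0.12) were near or below 0.1. Outside the members, the genes closest to the mean of all 9 over 47 libraries were MYO1E (r = 0.82), F12 (0.77), CLDN4 (0.76), RAB11FIP5 (0.76) and HMOX1 (0.76). Without t0 these 5 were at 0.77, 0.73, 0.64, 0.77 and 0.815.

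**Figure D5:**
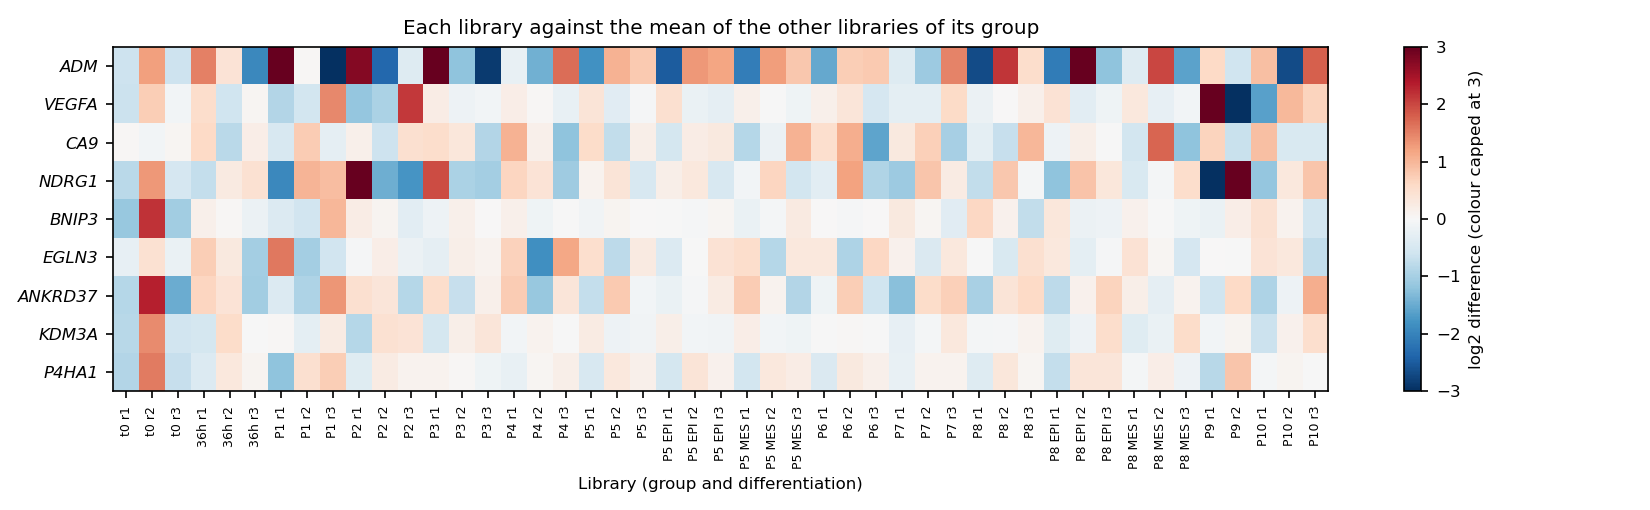
Rows are the 9 members and columns the 47 libraries, coloured by the log2 normalized count minus the mean of the other libraries of the same group, capped at 3; P9 holds only a pair of libraries, which mirror each other. The t0 r2 column is red for 8 of 9 members, while ADM and NDRG1 vary between differentiations at many time points and VEGFA stands out in P9 r1 and P2 r3.

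Several receptors for the secreted members also changed. FLT1, a VEGF receptor, went from 69.7, 57.1 and 65.4 TPM at t0 to 12.1, 6.36 and 5.78 at 36h (log2 fold change -3.26, SE 0.74, edgeR adjusted p = 0.005), and did not pass without t0 r2 (adjusted p = 0.0148) although its value there was -3.28. RAMP2, which with CALCRL forms an adrenomedullin receptor, went from 17.9, 16.5 and 22.1 to 6.96, 4.56 and 6.97 TPM (-1.59, SE 0.37) and likewise did not pass without t0 r2 (-1.64, adjusted p = 0.0158). CALCRL itself, named only as the partner of RAMP2, was at 0.77 to 1.03 TPM at t0. The VEGF co-receptor NRP2 fell at 36h (-1.58, SE 0.25), with or without t0 r2, and rose from P1 to P5 (2.30, SE 0.25). KDR, the main VEGFA receptor, was at 73.7, 62.6 and 32.0 TPM at 36h and 6.58, 1.83 and 0.37 at P1. Its log2 fold change was -4.37 (SE 1.00), and -6.005 (SE 1.18) without P1 r1. ACKR3, a scavenger receptor for adrenomedullin and CXCL12, rose from P1 to P5 (3.42, SE 0.88), reaching 29.7, 18.9 and 13.1 TPM, but did not pass without P1 r1 (2.84, adjusted p = 0.0315). At P5 it was at 28.8, 22.9 and 23.1 TPM in the EPI fractions and 13.2, 9.37 and 4.84 in MES, the reverse of ADM. Of the 15 receptors and relatives, 3 were lower at 36h, 1 was lower at P1, 2 were higher at P5 and none passed later, although 4 were higher in P9 and P10 without P10 r1. Their median log2 change in P9 and P10 against P8 was 1.78, against -0.01 over all genes tested, and 1.02 without P9 r1. In that comparison the unadjusted edgeR p was under 0.05 for 9 of the 15, and for 5708 of 21750 genes. Among 6 partners of collagen prolyl hydroxylase none passed in any comparison. Of 12 stress response genes only ATF3 did with all libraries, lower at P5 than at P1 (-2.18, SE 0.56). The median of the stress genes in P9 and P10 against P8 was 0.78, and 0.12 without P9 r1.

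Gene positions are those of GENCODE 29 on GRCh38. ADM lies at chr11:10304680-10307397, VEGFA at chr6:43770184-43786487, EGLN3 at chr14:33924231-34462774, P4HA1 at chr10:73007217-73096974 and BNIP3 at chr10:131966455-131982013. EGLN3 overlaps SPTSSA on the same strand, ANKRD37 overlaps UFSP2 and CA9 overlaps ARHGEF39, both on the opposite strand. SPTSSA, UFSP2 and ARHGEF39 averaged 1454, 1162 and 1044 expected counts a library, so low values of EGLN3, ANKRD37 and CA9 could hold reads of these neighbours, and the strand setting of the counting is not given in the sources used here.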

How the data were processed

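Polyadenylated RNA of 47 cultures or fractions was sequenced as single-end reads. Per the labels' processing notes, the authors used cutadapt 1.16, STAR 2.5.2b and RSEM 1.3.0 with GRCh38; the annotation release is not given in the sources used here. For each library the authors deposited RSEM expected counts, which need not be whole, and TPM, which RSEM scales by effective length. Members and lists were chosen with earlier results of these data known.

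Expected counts were rounded and tested with edgeR 4.0.16 (quasi-likelihood F-test, TMM, filterByExpr, limma 3.58.1, R 4.3.3) over all genes kept, with Benjamini-Hochberg adjustment. The 35 whole cultures shared 1 fit and the 12 fractions another. Genes passed with an FDR under 1%, 2-fold or more and 100 or more normalized counts on average, which follows the study. Log2 values used a prior count of 2. Replicate number was a block, since the series' design text has each experiment run through all time points. Deviations of same-numbered libraries had a mean correlation of 0.78 between P8 fractions and 0.65 between P5 fractions, 0.20 between 36h and P1, 0.31 between P5 and P8, 0.15 between P8 and late passages, but -0.01 between t0 and 36h and -0.02 between P1 and P5. Tests were checked on simulated counts. Totals ran from 13029491 to 64082859; reads carry no molecular identifiers, so counts under 3 were taken as not detectable and cover counting error only. Alternatives were DESeq2 1.42.0, no block, other size factors, no filter, compared groups only, an FDR of 5%, no mean minimum and each replicate left out. Named genes are the 9 members, up to 3 called genes per list, comparison and direction, and the 5 most similar genes; others were chosen after seeing values or for their role. P4HA2 is in 2 lists. Replicates are separate differentiations of 1 line.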

Additional observations from a re-analysis of the deposited data

How the results depend on the processing

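No value that passed changed sign under an alternative. With DESeq2, members called were 2 at 36h and 1 in P9 and P10, and genes called were 881 at 36h, 574 at P1, 155 at P8 against P5, 740 in P9 and P10 and 55 in the P8 fractions. With the compared groups alone, genes called were 168 at 36h, 2 at P5 and 0 at P1, P8 and in P9 and P10, and no member was called at 36h (0). At an FDR of 5% they were 964, 632, 1330, 39 and 786 in the order of the comparisons from 36h to P9 and P10, with 2 members at 36h and 1 in P9 and P10. With no mean minimum, 2 members were called at 36h, among 831 genes, and 2 at P5, among 1304. Without the replicate block, genes called were 0 at P8 against P5 and 37 in P9 and P10, and no member's call changed; the libraries with the same number were taken as paired from the design text. Leaving out 1 differentiation gave 83 to 891 genes at 36h, 2 to 955 at P1, 105 to 1232 at P5, 0 to 100 at P8 and 0 to 928 in P9 and P10, and 0 to 2 members at 36h and 0 to 1 at P1, at P5 and in P9 and P10. Without r1, NDRG1 passed at P1 (1.85), at P5 (-1.96) and in P9 and P10 (2.01). These alternatives were added after seeing the data: without t0 r2, 334 genes and 0 members were called at 36h, without P9 r1 137 genes were called in P9 and P10, and without P9 r2 1 member was, VEGFA (2.28). Without P1 r1, 809 genes and 1 member (EGLN3, -1.74) were called at P1, and without P10 r1, 1007 genes in P9 and P10. P10 alone against P8 gave 19 genes. The ADM difference between P5 fractions was 1.95 on log2(TPM + 1). The median Spearman correlation over time ran from 0.0315 to 0.178 with 1 differentiation left out, and the within-group median Pearson r from 0.0197 to 0.157; the latter was 0.00377 without t0. The cause of these shifts was not tested. CA9 had fewer than 3 counts in 26 libraries, deep ones included.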
